A study of Mus musculus with 16 samples.

Results

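The 10 mouse genes followed here belong to bone morphogenetic protein (BMP) signalling in hair follicle stem cell (HFSC) organoids: the transcriptional regulators Id1, Id2, Id3 and Id4, the ligands Bmp2 and Bmp7, the receptor Bmpr1a, and the inhibitors Smad6, Smad7 and Bambi. The 10 genes were chosen by symbol and matched to the Ensembl identifiers of the count table, where all 10 were among the 19049 genes tested of 32989 listed. The organoids were 3D-3C cultures from 4 C57BL/6J mice, a culture of epidermal cells in which HFSCs and their progeny are kept in balance over 2 weeks. They were left untreated, or the acetylated polyamine N1-acetylspermidine (N1-AcSpd) was added for 72 h. Cells positive for integrin α6, a surface protein of basal epithelial cells, were then sorted by CD34 into CD34- progenitors and CD34+ HFSCs. Every mouse gave 1 library to each of the 4 groups (untreated CD34-, N1-AcSpd CD34-, untreated CD34+ and N1-AcSpd CD34+), so that n = 4 per group and 16 libraries in all. The cells came from male and female animals in telogen, the resting phase of the hair cycle, according to the study's methods. The labels title the untreated control samples WT and the treated ones N1AcSpd, and name no transgene or deletion. The values are those of cultured cells and not of follicles in skin. The comparisons ask how the BMP and Id genes stand in HFSCs against progenitors, and how they stand after exposure to the acetylated polyamine.

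BMP ligands bind receptor pairs on the cell surface, of which Bmpr1a is a type I member, and the activated receptor phosphorylates Smad1, Smad5 and Smad9. These enter the nucleus with Smad4 and switch on target genes, among them the Id genes and the pathway's own inhibitors. Id proteins lack a DNA-binding domain and hold E proteins such as Tcf3 away from DNA. In the resting hair follicle, BMP signalling keeps the stem cells of the bulge quiescent, and its fall goes along with the start of hair growth.

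The promoter windows of Id2, Id3, Id4 and Smad6 are shown because these 4 genes stood higher in CD34+ HFSCs in both conditions. RefSeq windows on GRCm38.p6, 250 bases before to 50 bases after the RefSeq start, were searched in 5 of the 10 genes: Id2, Id3, Id4, Smad6 and Bmpr1a. The RefSeq start can differ from that of the GENCODE gene spans printed further below. The Id2 and Id3 windows lie inside those spans. No window was at hand for Id1, Bmp2 and Bmp7, and Smad7 and Bambi were left out of the search. Capitals mark GGCGCC, the GC-rich element known from BMP-responsive Smads, and the Smad box GTCT, searched on both strands (its complement reads AGAC). Windows are given 5′ to 3′ on the gene's own strand: Id2 chr12:25096043-25096342 (minus strand), Id3 chr4:136143572-136143871 (plus), Id4 chr13:48260866-48261165 (plus) and Smad6 chr9:64022010-64022309 (minus).
Id2: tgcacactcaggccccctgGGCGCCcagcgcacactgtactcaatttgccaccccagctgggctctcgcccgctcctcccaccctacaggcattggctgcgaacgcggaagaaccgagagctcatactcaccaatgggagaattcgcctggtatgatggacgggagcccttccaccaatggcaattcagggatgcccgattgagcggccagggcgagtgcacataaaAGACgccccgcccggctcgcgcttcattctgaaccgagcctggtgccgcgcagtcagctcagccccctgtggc
Id3: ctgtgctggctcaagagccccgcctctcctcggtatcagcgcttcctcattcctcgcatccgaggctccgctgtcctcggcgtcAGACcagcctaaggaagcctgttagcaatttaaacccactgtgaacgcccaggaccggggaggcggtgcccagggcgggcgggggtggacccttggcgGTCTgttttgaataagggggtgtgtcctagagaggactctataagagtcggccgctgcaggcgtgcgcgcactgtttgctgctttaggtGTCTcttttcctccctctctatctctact
Id4: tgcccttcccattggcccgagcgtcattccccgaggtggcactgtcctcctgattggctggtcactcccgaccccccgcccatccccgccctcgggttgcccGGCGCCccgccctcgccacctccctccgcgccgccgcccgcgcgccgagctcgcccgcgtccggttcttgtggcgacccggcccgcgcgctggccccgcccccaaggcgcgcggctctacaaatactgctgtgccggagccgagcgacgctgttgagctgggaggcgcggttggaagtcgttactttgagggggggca
Smad6: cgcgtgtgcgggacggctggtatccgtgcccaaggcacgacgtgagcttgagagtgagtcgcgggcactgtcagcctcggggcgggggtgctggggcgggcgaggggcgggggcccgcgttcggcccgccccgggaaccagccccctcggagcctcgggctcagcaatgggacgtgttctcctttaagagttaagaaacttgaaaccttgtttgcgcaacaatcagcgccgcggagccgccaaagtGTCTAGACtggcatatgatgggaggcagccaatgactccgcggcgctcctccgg

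The Id2 window held GGCGCC once, at position -231 from the RefSeq start, and the Id4 window held it once, at position -148. The Id3 and Smad6 windows held no GGCGCC, while the Bmpr1a window, whose gene did not pass the test between the fractions, held it once. Over all 32851 RefSeq windows, 11.9% held this element, a share not matched for base content. G and C made up 63.3% of the Id2, 60% of the Id3, 73.3% of the Id4, 66.3% of the Smad6 and 79.3% of the Bmpr1a window. Whether these windows hold the element more often than others as rich in G and C was not tested. The Smad box was found 3 times in Id3, 2 times in Smad6 (as the adjoining GTCT and AGAC at the start itself), 1 time in Id2 and not in the Id4 window. Because 88% of all windows hold a Smad box, its presence did not set these promoters apart. The E-box CANNTG, the site of basic helix-loop-helix factors, was found 1 time in Id2 and 1 time in Smad6, against 72.3% of all windows with at least 1. These matches describe letters in a window and not bound sites.

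The libraries held 15480075 to 29074855 unique molecular identifiers (UMIs), and every N1-AcSpd CD34- library held at least 25202264. In the other groups only N1-AcSpd CD34+ mouse 1 was as deep, with 26233887. Cd34 stood at 43.4 to 64.1 CPM (UMIs scaled to a common library size, with TMM factors) in the CD34+ libraries and at 2.88 to 3.65 CPM in the CD34- libraries, although its reads may be shared with Gm16897, which lies on the opposite strand and had nearly the same counts. Of 6 sort and stem cell markers, Cd34, Krt15, Lhx2 and Sox9 were higher and Itga6 lower in CD34+ cells in both conditions, and Lgr5 did not pass the test. All 8 markers of differentiated keratinocytes were lower in CD34+ cells in both conditions. Their summed level was 1040 to 1390 CPM in untreated CD34-, 1270 to 1630 in N1-AcSpd CD34-, 298 to 325 in untreated CD34+ and 312 to 405 in N1-AcSpd CD34+ libraries. Of the basal keratinocyte markers, Krt14 was lower (log2 fold changes -0.14 and -0.15, untreated and treated) and Trp63 higher (0.32 and 0.39) in CD34+ cells, and among markers of other cell types Col1a2 (-2.19 and -2.25, at 1 to 22 UMIs per library) and Pecam1 (-0.13 and -0.13) were lower. These markers moved with the differences between the fractions reported here, and their part in them was not tested. Fibroblast markers summed to at most 1.52 CPM and immune markers to at most 2.08 CPM in any library. Basal keratinocyte markers summed to 5670 to 6900 CPM and melanocyte markers to 9.14 to 12.4 CPM. The melanocyte sum was mostly Pmel, at 8.84 to 11.7 CPM, which is overlapped by Cdk2 and Dgka on the opposite strand. Dct was at most 0.868, Tyr at most 0.36 and Tyrp1 at most 0.071 CPM. Of the endothelial markers, Pecam1 was at 1690 to 2050 CPM in all libraries while Kdr was at most 0.36 CPM and at 0 in at least 2 libraries of every group. In such bulk samples, fewer cells of a type and less RNA per cell cannot be told apart.

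Id2, Id3, Id4 and Smad6 were higher in CD34+ HFSCs than in CD34- progenitors both without and with N1-AcSpd, and the ligand Bmp2 was lower in untreated CD34+ cells. Bmp2 reached the count filter only through untreated CD34- cells, where it was high. In untreated cells 4 of the 10 genes passed the test upwards, where 16.1% of all tested genes were called higher, and 1 passed downwards, where 16.1% were called lower. With N1-AcSpd, 5 of the 10 were called higher, Id1 being added, against 16.5% of all genes, and 0 were called lower against 16.8% (1 of the 10, Bambi, had an unadjusted p under 0.05 in that direction, and DESeq2 called 0). The median log2 fold change of the 10 genes was 0.14 in untreated and 0.21 in treated cells, beside 0.022 and -0.0068 over all tested genes. With N1-AcSpd against untreated, 1 of the 10 genes, Bambi, was called in CD34- cells (0.614% of all genes called), at an adjusted p of 0.048 that held in 1 of 20 fits without 1 library or mouse. A gene was called at a Benjamini-Hochberg adjusted p under 0.05 in edgeR's quasi-likelihood test over all tested genes. Log2 fold changes are CD34+ relative to CD34-, or N1-AcSpd relative to untreated, and values by library are in the order of mice 1, 2, 3 and 4.

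**Figure D1:**
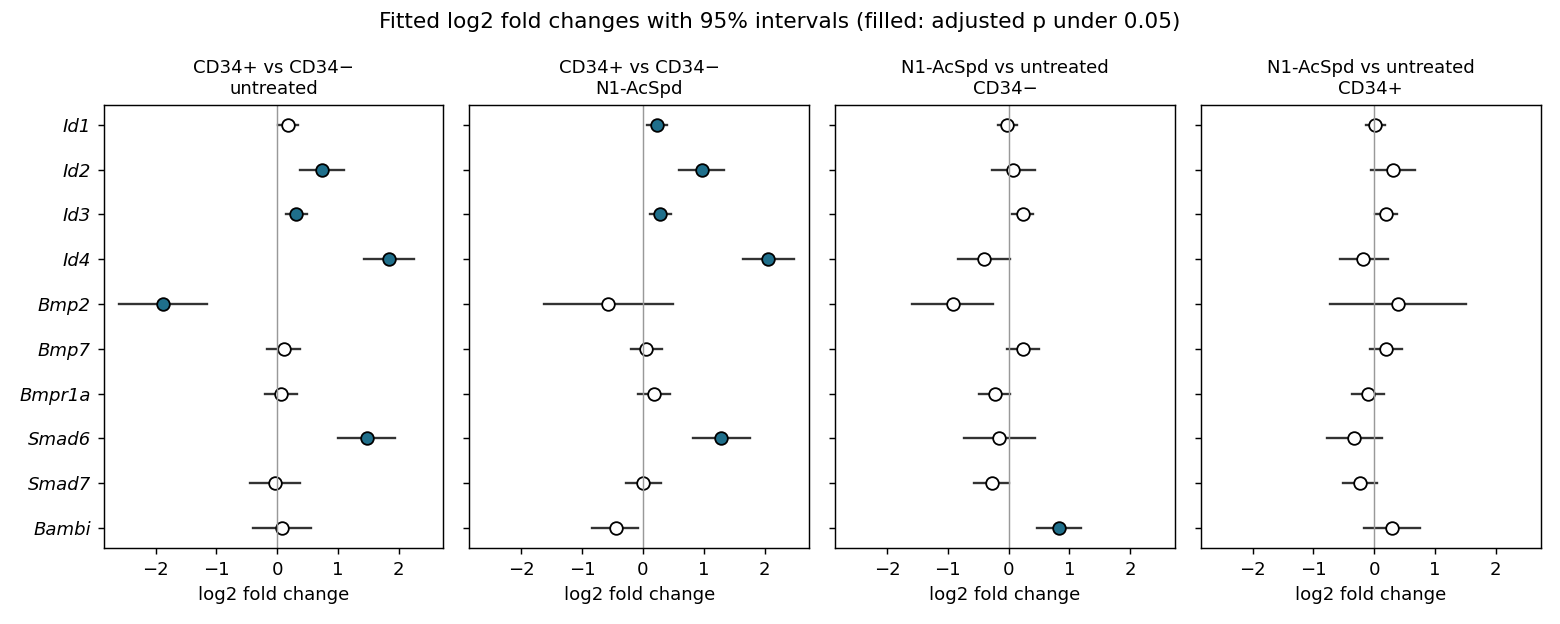
Fitted log2 fold changes (x axis) of the 10 genes with 95% intervals in the comparisons between the fractions, untreated and with N1-AcSpd, and between the treatments, in CD34- and CD34+ cells. Filled points passed an adjusted p of 0.05. Id4 lies farthest to the right between the fractions (1.84 and 2.06), Bmp2 farthest to the left in untreated cells (-1.88), and Bambi is the only filled point between the treatments (0.83).

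Id4 showed the largest increase from CD34- to CD34+ cells among the 10 genes in both conditions. This member of the Id family (chromosome 13, 48261228 to 48266026, plus strand, GRCm38) was at 1.55, 3.07, 1.82 and 2.03 CPM in untreated CD34- libraries and at 8.02, 7.02, 6.34 and 8.63 CPM in untreated CD34+ libraries. With N1-AcSpd it was at 1.44, 1.56, 1.37 and 1.97 CPM in CD34- and at 6.46, 6.49, 5.58 and 8.05 CPM in CD34+ libraries. Every CD34+ library lay above every CD34- library, and the highest CD34- value, that of untreated mouse 2, was still below the lowest CD34+ value. Id4 was 3.57-fold higher in untreated CD34+ cells (log2 fold change 1.84 ± 0.19 SE, adjusted p = 8.67e-06) and 4.18-fold higher in treated ones (2.06 ± 0.20, adjusted p = 3.02e-06). Without each library or mouse in turn the difference ran from 1.68 to 2.09 and from 1.96 to 2.18, and the call held each time. On the opposite strand, A330033J07Rik and Gm49291 overlap Id4 with mean counts of 16.9 and 16.7 against 87.8 for Id4. Whether the counting used strand is not given in the sources used here, so reads from these genes cannot be told apart.

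Id2, a second partner that keeps E proteins off DNA, was higher by a smaller step. On chromosome 12 (25093799 to 25097140, minus strand), it gave 16.3, 19.1, 17 and 21.3 CPM in untreated CD34- and 28.6, 30, 26 and 38.1 CPM in untreated CD34+ libraries. In treated cells it gave 18.1, 19.9, 15.4 and 24.5 CPM in CD34- and 32.7, 37.5, 32.7 and 49.6 CPM in CD34+ libraries. The fractions did not overlap in either condition, and mouse 4 was the highest of the 4 mice in all 4 groups. The log2 fold change was 0.74 ± 0.17 in untreated (1.67-fold, adjusted p = 0.00409) and 0.97 ± 0.17 in treated cells (1.96-fold, adjusted p = 0.000521), and all 4 mice had the same direction in both.

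Id3, a direct BMP target like Id1, was higher by a smaller step still, with libraries of a group close together. Its levels (chromosome 4, 136143497 to 136145755, plus strand) were 89.6, 103, 99.2 and 106 CPM in untreated CD34- and 121, 130, 119 and 125 CPM in untreated CD34+ libraries. With N1-AcSpd they were 97.4, 125, 113 and 130 CPM in CD34- and 133, 146, 136 and 152 CPM in CD34+ libraries. Again no CD34+ library was as low as the highest CD34- library of its condition. The log2 fold changes were 0.31 ± 0.08 (1.24-fold, adjusted p = 0.00944) and 0.28 ± 0.08 (1.22-fold, adjusted p = 0.0153). Both calls were lost without mouse 2 (adjusted p = 0.0569 untreated and 0.0529 treated) or mouse 3 (0.0564 and 0.086), with log2 fold changes of 0.31, 0.31, 0.32 and 0.28.

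Id1, a widely used readout of BMP, differed least of the Id genes. On chromosome 2 (152736251 to 152737410, plus strand), it was at 46.1, 58.5, 54.7 and 59.4 CPM in untreated CD34- and at 59, 61.7, 64.4 and 63.4 CPM in untreated CD34+ libraries. These ranges overlapped, with mouse 4 of the CD34- group just above mouse 1 of the CD34+ group. In treated cells Id1 was at 48.6, 53, 54.8 and 59.4 CPM in CD34- and at 61.3, 63.8, 63.4 and 64 CPM in CD34+ libraries, which did not overlap. Mouse 1 had the lowest Id1 of the 4 mice in every group. The log2 fold change was 0.18 ± 0.07 in untreated cells (adjusted p = 0.0743), which did not pass the test, and 0.23 ± 0.07 in treated cells (1.17-fold, adjusted p = 0.0288), which did. When the mouse was held as a block, the untreated difference passed as well (0.19, adjusted p = 0.0144), and it also passed without untreated CD34- mouse 4 (0.23, adjusted p = 0.0435). The treated call was lost without mouse 2 or 3 (adjusted p = 0.143 and 0.132) and without 4 single libraries: CD34- mouse 1 (0.18, adjusted p = 0.089), CD34- mouse 2 (0.0658), CD34+ mouse 3 (0.0551) and CD34+ mouse 4 (0.0617).

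**Figure D2:**
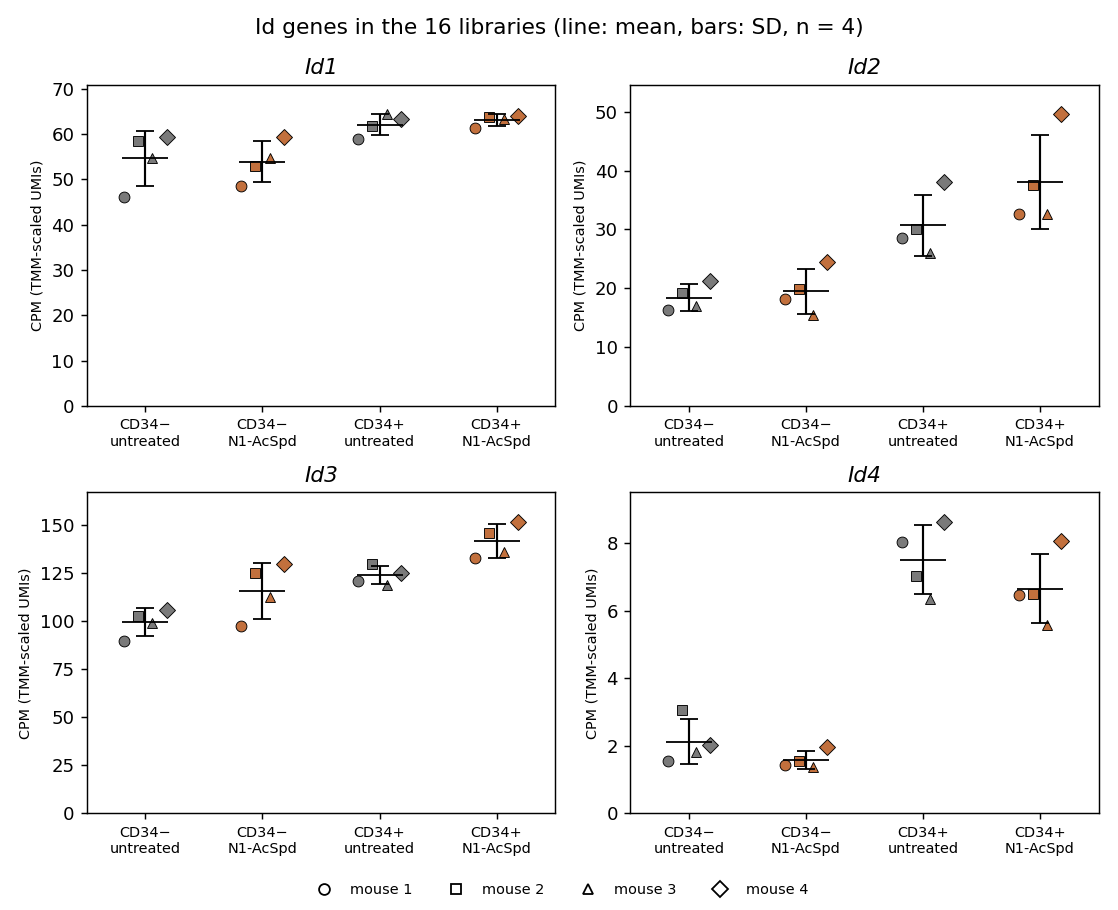
Levels of Id1, Id2, Id3 and Id4 in CPM (y axis, from 0) in the 4 groups; each point is 1 library, its shape the mouse, the line the mean and the bars the SD of 4 libraries. Id4 rises from means of 2.12 and 1.59 CPM in CD34- to 7.51 and 6.65 CPM in CD34+ cells, while the Id1 means stay between 53.9 and 63.1 CPM.

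The genes whose pattern over the 16 libraries lay closest to each Id gene were found by the root mean square difference of centred log2 CPM among 9426 candidates. For Id4 these were Pik3r1 (0.19), a regulatory subunit of PI3-kinase, and Sgk1 (0.20), a serum- and glucocorticoid-regulated kinase, with mean levels in the 4 groups of 4.12, 2.98, 16.3 and 13.1 CPM and of 79.1, 70.3, 276 and 262 CPM (untreated CD34-, treated CD34-, untreated CD34+, treated CD34+). For Id2 they were Hoxb3os (0.14) and Hoxb2 (0.15) of the HoxB cluster. For Id3 they were Laptm4b (0.09) and Alad (0.09), and for Id1 Bpgm (0.06) and Uri1 (0.08). The points of such a comparison share mice and libraries, and a small difference is easily reached where both genes moved little.

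Among the inhibitors, Smad6, which blocks BMP receptor Smads inside the cell, was the one that separated the fractions. Smad6 (chromosome 9, 63953076 to 64022059, minus strand) was at 0.645, 0.767, 0.736 and 0.587 CPM in untreated CD34- and at 1.59, 2.08, 1.84 and 2.06 CPM in untreated CD34+ libraries. After N1-AcSpd it was at 0.413, 0.639, 0.532 and 0.862 CPM in CD34- and at 1.41, 1.54, 1.9 and 1.17 CPM in CD34+ libraries. The fractions stayed apart in both conditions, but in mouse 4 the treated pair was close (log2 difference 0.43 against 1.21 to 1.75 in the other mice). The log2 fold changes were 1.47 ± 0.22 (2.76-fold, adjusted p = 0.000168) and 1.29 ± 0.22 (2.45-fold, adjusted p = 0.000371), and both calls held without each library or mouse in turn. The counts behind them were small, 10 to 40 UMIs per library.

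Smad7, which acts on both the BMP and the TGF-β receptors, gave group means of 3.55 ± 0.525, 2.93 ± 0.425, 3.46 ± 0.43 and 2.94 ± 0.278 CPM (SD; untreated CD34-, treated CD34-, untreated CD34+, treated CD34+). The log2 fold change between the fractions was -0.04 untreated (95% interval -0.44 to 0.37) and 0.00 treated (-0.28 to 0.29), and the ranges overlapped in both. Bambi, a decoy receptor without a kinase domain, was at 0.688 to 0.996 CPM in untreated CD34- and at 0.759 to 1.02 CPM in untreated CD34+ libraries, a log2 fold change of 0.08 (-0.40 to 0.56). In treated cells the CD34+ libraries lay below the CD34- ones without overlap, at a log2 fold change of -0.45 ± 0.17 that missed the threshold (adjusted p = 0.059). This difference passed without CD34- mouse 2 (-0.51, adjusted p = 0.0495) or CD34+ mouse 3 (-0.54, adjusted p = 0.0475).

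Bmp2, a ligand, was lower in untreated CD34+ HFSCs. It was counted 13, 5, 14 and 8 times in the untreated CD34- libraries and 2, 2, 2 and 3 times in the untreated CD34+ libraries (chromosome 2, 133552159 to 133562885, plus strand). In CPM these were 0.559, 0.319, 0.606 and 0.361 against 0.114, 0.11, 0.108 and 0.154, and the groups did not overlap. The log2 fold change was -1.88 ± 0.33 (adjusted p = 0.000702), and it held without each library or mouse in turn. Bmp2 reached the count filter only through untreated CD34- cells, where it was high (mean count 5.44 against a minimum of 5). It had 40 UMIs there, and 25, 9 and 13 in treated CD34-, untreated CD34+ and treated CD34+ cells. The fits without a library or mouse kept the genes of the full data. Bmp2 was not tested with filterByExpr, and its call did not change in the other settings, including no count filter. In treated cells the counts were 6, 6, 9 and 4 in CD34- and 6, 2, 2 and 3 in CD34+ libraries, and the log2 fold change of -0.57 (95% interval -1.62 to 0.49, adjusted p = 0.437) did not pass. With so few UMIs, small differences of Bmp2 were not detectable at this depth.

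Bmp7, a second ligand (chromosome 2, 172868012 to 172940321, minus strand), stood at means of 3.47 ± 0.477, 4.1 ± 0.375, 3.73 ± 0.59 and 4.25 ± 0.21 CPM in the same order of groups. Its log2 fold change between the fractions was 0.11 (-0.16 to 0.37) untreated and 0.05 (-0.20 to 0.31) treated. Bmpr1a, the type I receptor (chromosome 14, 34410734 to 34503341, minus strand), stood at 8.04 ± 0.206, 6.85 ± 0.569, 8.38 ± 1.31 and 7.8 ± 1.34 CPM. Its log2 fold change was 0.06 (-0.20 to 0.32) untreated and 0.19 (-0.08 to 0.45) treated. For both genes the CD34- and CD34+ ranges overlapped in each condition, and the intervals reach up to 0.37 for Bmp7 and 0.45 for Bmpr1a.

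**Figure D3:**
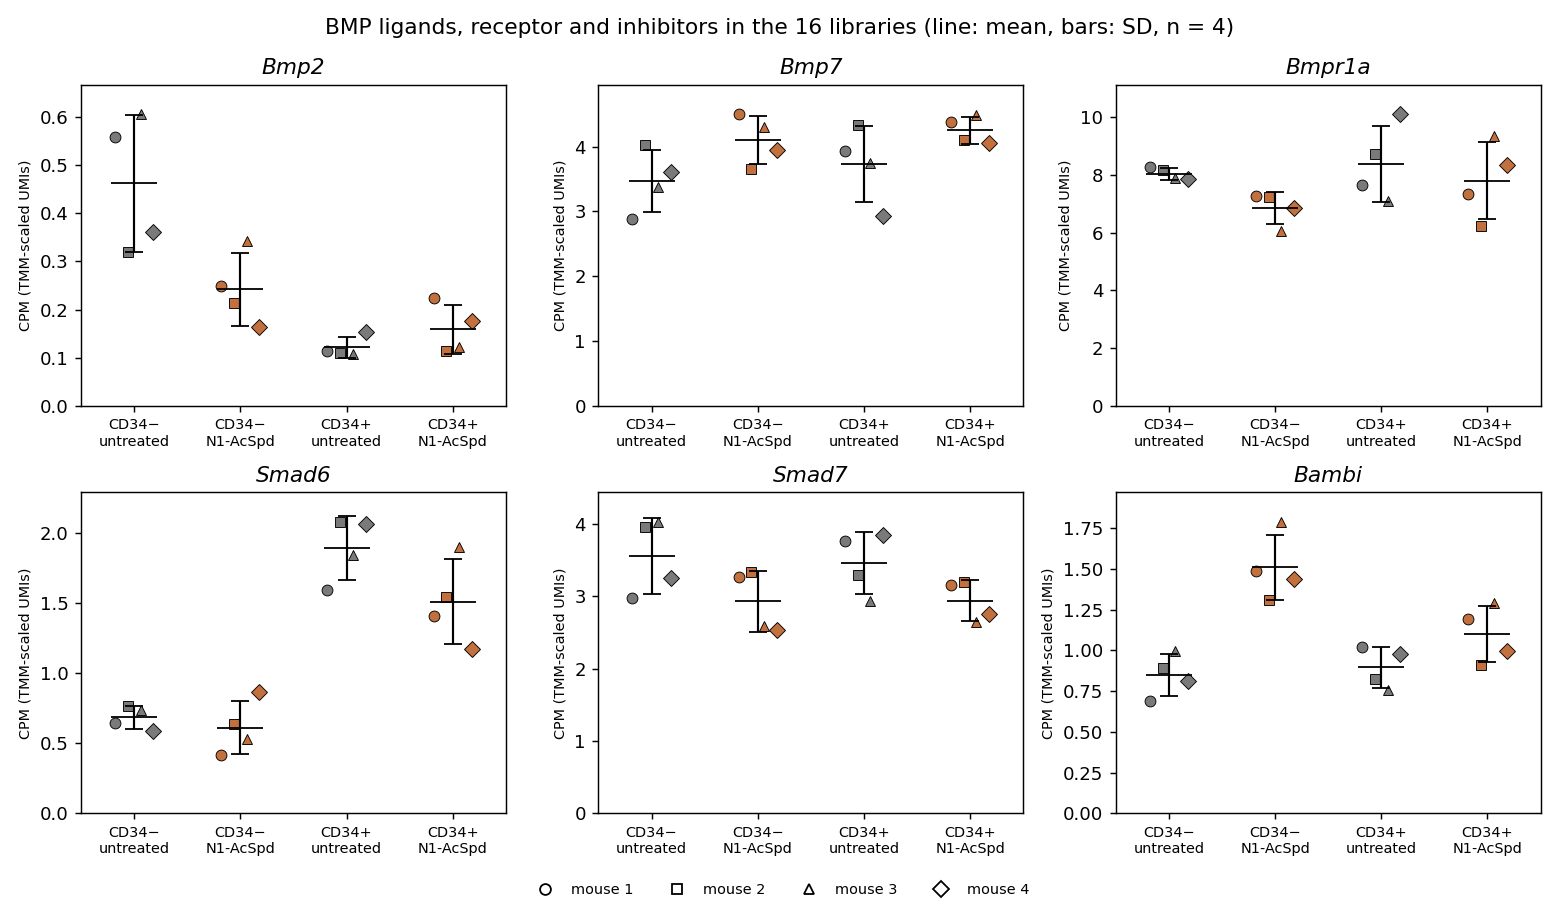
Levels of Bmp2, Bmp7, Bmpr1a, Smad6, Smad7 and Bambi in CPM (y axis, from 0) in the 4 groups; each point is 1 library, its shape the mouse, the line the mean and the bars the SD of 4 libraries. Smad6 is higher in both CD34+ groups (means 1.89 and 1.51 CPM against 0.684 and 0.611), Bmp2 is highest in untreated CD34- cells (0.462) and Bambi in treated CD34- cells (1.51).

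Bambi was called higher with N1-AcSpd in CD34- progenitors, at the edge of the test. The counts were 16, 14, 23 and 18 in untreated and 36, 37, 47 and 35 in treated CD34- libraries, or 0.688, 0.894, 0.996 and 0.812 against 1.49, 1.31, 1.79 and 1.44 CPM. All treated libraries lay above all untreated ones. The log2 fold change was 0.83 ± 0.17 (1.77-fold, adjusted p = 0.048), close to the threshold. It kept its size but lost the call without any of 15 single libraries (adjusted p = 0.0556 to 0.146) or any mouse (0.179 to 0.259), and held only without treated CD34+ mouse 3 (0.0448). In DESeq2 the unadjusted p was 0.00116 and no adjusted value was given. In CD34+ HFSCs edgeR and DESeq2 called 0 of the 10 genes, with 1, Id3, at an unadjusted p under 0.05 in edgeR, where 0.325% of all genes were called. For Id4, Smad6, Smad7, Bambi, Bmp2 and Bmp7 DESeq2 gave no adjusted value there, so it could not call them. There Bambi was at 1.02, 0.823, 0.759 and 0.976 CPM untreated and at 1.19, 0.911, 1.29 and 0.998 CPM treated, a log2 fold change of 0.29 ± 0.21 (adjusted p = 0.639). These treated and untreated ranges overlapped. The fold changes of the fractions were not shown to differ (interaction -0.53, 95% interval -1.17 to 0.10, adjusted p = 1). Averaged over both fractions, Bambi was 0.56 ± 0.12 higher (adjusted p = 0.021), the 1 gene of the 10 called where 4.87% of all genes were. That call was lost without mouse 1, 2, 3 or 4 (adjusted p = 0.128, 0.0809, 0.114 and 0.0885).

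With TMM scaling, all 16 libraries and no mouse block, no Id gene passed edgeR's test for N1-AcSpd in either fraction or in the mean of both. Id3 was at 97.4 to 130 CPM in treated against 89.6 to 106 CPM in untreated CD34- libraries (log2 fold change 0.23 ± 0.08, adjusted p = 0.235), and at 133 to 152 against 119 to 130 CPM in CD34+ libraries (0.20 ± 0.08, adjusted p = 0.323). In CD34+ cells these ranges did not overlap, and all 4 mice had more Id3 after treatment in both fractions. With the mouse as a block, Id3 passed in CD34- cells (0.22, adjusted p = 0.0496) and not in CD34+ cells (0.19, adjusted p = 0.0953). Averaged over the fractions Id3 was 0.21 ± 0.06 higher at an adjusted p of 0.0524, which the block brought to 0.00678 and DESeq2 to 0.00411 (log2 fold change 0.22 in DESeq2, where Id3 was the 1 gene of the 10 called and Bambi had no adjusted value). The mean effect also passed without mouse 1 (0.24, adjusted p = 0.0476) and without treated CD34- mouse 1 (0.25, adjusted p = 0.0124).

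Id2 was 0.31 ± 0.17 higher in treated CD34+ cells (adjusted p = 0.454) and 0.08 ± 0.17 higher in treated CD34- cells (adjusted p = 0.925). Within single CD34+ mice the log2 differences of Id2 were 0.19, 0.32, 0.33 and 0.38, and as mouse 4 was high in all groups, the block left little spread: the CD34+ effect then had an adjusted p of 0.0343 (0.31), and the mean effect one of 0.0181 (0.19). Id4 was at a log2 fold change of -0.40 ± 0.20 in CD34- (adjusted p = 0.392) and -0.18 ± 0.18 in CD34+ cells (adjusted p = 0.794), with the treated value below the untreated one in all 8 mouse pairs. Id1 was at -0.02 (95% interval -0.18 to 0.14) and 0.02 (-0.13 to 0.18), the narrowest intervals among the 10 genes. Smad7 was at -0.27 and -0.23, Bmp7 at 0.24 and 0.19, Bmpr1a at -0.23 and -0.11, and Smad6 at -0.16 and -0.33 in CD34- and CD34+ cells, with adjusted p-values from 0.388 to 0.901. Bmpr1a in treated CD34- cells (6.05 to 7.26 CPM) lay below untreated cells (7.85 to 8.26 CPM) without overlap and still missed the threshold (adjusted p = 0.432).

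No gene was called for a difference between the treatment effects of the fractions. Of the 19049 tested genes 0% passed in edgeR's test, and 799 had an unadjusted p under 0.05. DESeq2 called 72, none of them among the 10 genes, and gave no adjusted value for Bmp2. In edgeR Bmp2 was the only one of the 10 with an unadjusted p under 0.05 (0.0475, adjusted p = 1). Its log2 fold change with N1-AcSpd was -0.92 ± 0.31 in CD34- (adjusted p = 0.192) and 0.39 ± 0.52 in CD34+ cells (adjusted p = 0.862). Markers moved with treatment too: averaged over the fractions, Krt15 was lower (-0.37, adjusted p = 0.0449) and 2 of 8 differentiated keratinocyte markers were higher, Ivl (0.60, adjusted p = 0.00505) and Sbsn (0.25, adjusted p = 0.0346), the latter with counts nearly equal to those of the overlapping Tmem147os. In that mean comparison 4.87% of all tested genes were called. The part of these markers in the treatment effects was not tested.

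Around the 10 genes, 61 further genes of the pathway and its surroundings were counted in 8 lists, of which 44 could be tested. In untreated CD34+ HFSCs 13 of the 44 were higher and 4 lower, where 16.1% of all tested genes were called higher and 16.1% lower. In treated ones 14 were higher and 6 lower, beside 16.5% and 16.8% of all tested genes. The median log2 fold change of the 44 was 0.20 and 0.11, beside 0.022 and -0.0068 over all tested genes. Of the secreted antagonists, 3 of 6 tested were higher and 0 lower in both conditions, against the same shares of all genes. Sostdc1, also called Wise or ectodin, which binds BMPs and Wnt co-receptors, was at 83.3, 80.2, 74.9 and 92.8 CPM in untreated CD34- and at 208, 232, 210 and 245 CPM in untreated CD34+ libraries, and with N1-AcSpd at 66.6, 62.2, 45.6 and 65.6 against 241, 278, 256 and 289 CPM. Its fractions were far apart in both conditions, at 1.43 ± 0.11 (adjusted p = 9.44e-07) and 2.15 ± 0.11 (adjusted p = 4.22e-08). The Sostdc1 difference between the conditions, 0.71 ± 0.16, had an unadjusted p of 0.000453 and an adjusted p of 1 (0 of the 44 called in edgeR, 4 at an unadjusted p under 0.05, 1 called by DESeq2). Nbl1, a DAN-family antagonist, was higher by 2.03 ± 0.24 (adjusted p = 1.95e-05) and 1.72 ± 0.23 (6.40e-05). Twsg1, which tunes ligand binding by chordin, was higher by 0.43 ± 0.09 (0.00255) and 0.39 ± 0.09 (0.00424), the treated call being lost without mouse 4 (0.31, adjusted p = 0.0591).

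Of the signal-transducing Smads and their regulators, 2 of 9 tested were higher and 2 lower in untreated CD34+ cells, near the 16.1% of all genes called in each direction. In treated cells 4 were higher and 2 lower, beside 16.5% and 16.8%. Smad1, a receptor-activated BMP Smad, was higher by 0.45 ± 0.06 (adjusted p = 5.80e-05) and 0.33 ± 0.06 (0.00058). Smad5, its close relative, was higher by 0.42 ± 0.08 (0.000733) and 0.28 ± 0.08 (0.0104), the latter not without mouse 2 (0.25, adjusted p = 0.0817). Smurf1, a ubiquitin ligase that marks these Smads for degradation, was lower by log2 fold changes of -0.45 ± 0.10 (0.00352) and -0.55 ± 0.10 (0.000688). In treated cells the corepressor Ski was higher in the CD34+ fraction by 0.48 ± 0.05 (4.09e-06), and Smurf2, a relative of Smurf1, by 0.43 ± 0.12 (0.0119), a call that held in 18 of 20 fits without 1 library or mouse.

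Of 4 tested further BMP targets, Atoh8 and Msx1 were higher in CD34+ cells in both conditions. Of all tested genes, 16.1% were called higher in untreated and 16.5% in treated CD34+ cells. Msx2 and Gata3, with mean counts of 107 and 287, were not called. In untreated CD34- and CD34+ cells Msx2 averaged 5.52 and 5.02 CPM, and Gata3 14.3 and 14.8 CPM. The mean counts of Atoh8 and Msx1, 22.1 and 25.8, were under the minimum of 50 set for naming, and both genes were chosen after their values were seen. Atoh8, a basic helix-loop-helix factor, had 4, 5, 2 and 3 UMIs in untreated CD34- and 37, 33, 27 and 40 in untreated CD34+ libraries, a log2 fold change of 3.39 ± 0.44 (adjusted p = 5.85e-05). With N1-AcSpd it had 2, 14, 8 and 7 against 45, 44, 33 and 49 UMIs (2.92 ± 0.41, adjusted p = 9.72e-05). Every CD34+ library lay above every CD34- library in both conditions. Msx1, a homeobox gene, was higher by 1.21 ± 0.30 (adjusted p = 0.00654) and 0.96 ± 0.29 (0.0218). The Msx1 calls were lost without mouse 1 in untreated cells (1.12, adjusted p = 0.0517) and, in treated cells, without mouse 3 (0.66, adjusted p = 0.0844), mouse 4 (0.98, 0.0861) or CD34+ mouse 3 (0.90, 0.0507).

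Among 3 tested E proteins that Id proteins bind, 1 was called higher in each condition, beside 16.1% (untreated) and 16.5% (treated) of all tested genes. This was Tcf3, higher by 0.52 ± 0.05 (adjusted p = 4.55e-06) and 0.51 ± 0.05 (4.95e-06) in the same fraction as Id2, Id3 and Id4. Tcf4 was not called. Tcf12 gave no usable value: it was at 611 and 587 CPM in untreated CD34- mice 1 and 3 but at 10.5 and 13 CPM in mice 2 and 4, and its counts were nearly equal to those of Rpl15-ps2, which overlaps it. None of 9 tested receptors and co-receptors passed in untreated cells, where 16.1% of all tested genes were called higher and 16.1% lower. In treated cells these shares were 16.5% and 16.8%. In treated cells, Rgma was higher (0.46 ± 0.16, adjusted p = 0.0432) and Bmpr1b lower (-1.34 ± 0.28, 0.00209), both with mean counts under 50 and chosen after their values were seen. The Rgma call held in 7 of 20 fits that each left out a library or a mouse, and was lost with the mouse block (adjusted p = 0.0532). Of 3 tested ligands, 1, Bmp8b, was higher in untreated CD34+ cells (0.17 ± 0.05, adjusted p = 0.0168), beside 16.1% of all tested genes. Its counts were nearly equal to those of Ppie on the opposite strand.

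**Figure D4:**
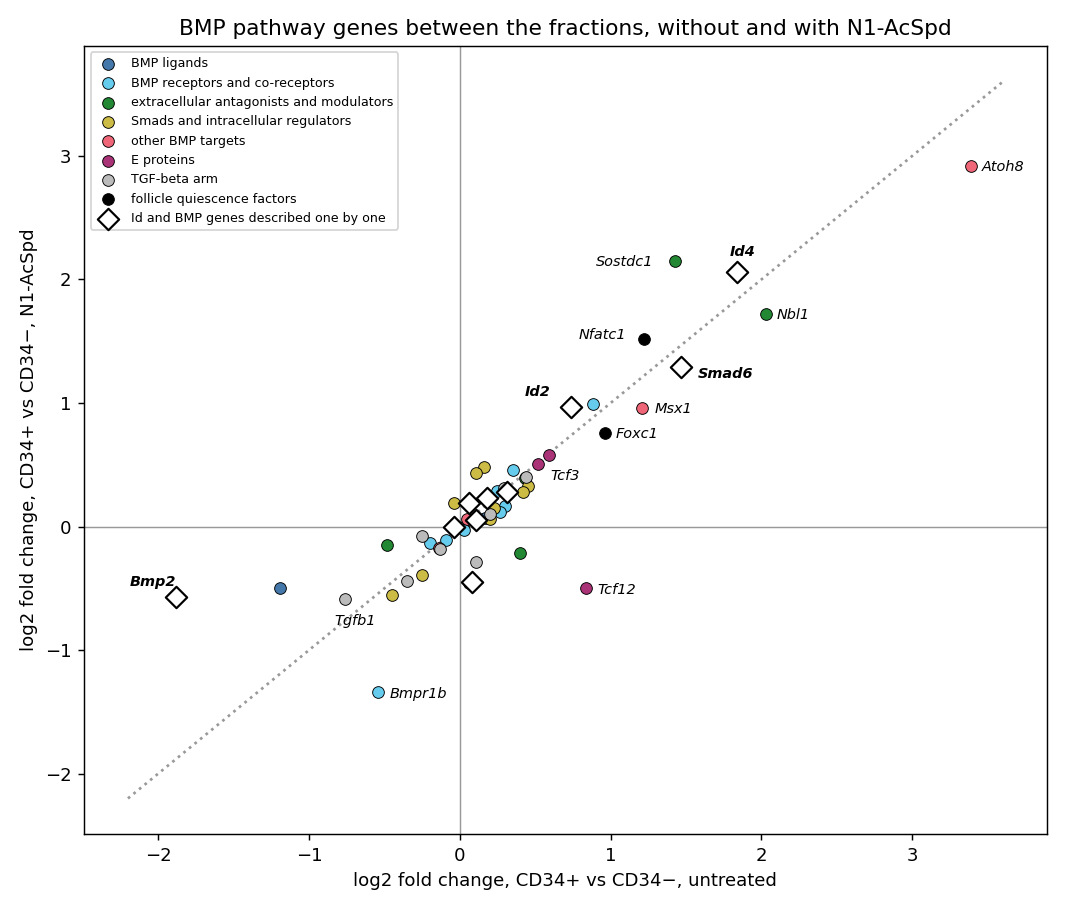
Log2 fold change of CD34+ relative to CD34- cells, untreated (x axis) and with N1-AcSpd (y axis), for the 44 tested pathway genes (circles, coloured by list) and the 10 genes described one by one (diamonds). The dotted line marks equal values; Atoh8 (3.39 and 2.92), Nbl1 (2.03 and 1.72), Id4 (1.84 and 2.06) and Sostdc1 (1.43 and 2.15) lie at the upper right and Bmp2 (-1.88 and -0.57) at the left.

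With N1-AcSpd, 2 of the 44 pathway genes were called in CD34- cells, both lower, and 0 in CD34+ cells, where 0.614% and 0.325% of all tested genes were called. The mouse block called 4 and 1, DESeq2 5 and 0, and 8 of the 44 had an unadjusted p under 0.05 in each fraction. Ski was at 7.44, 7.03, 7.71 and 7.85 CPM in untreated and at 5.86, 5.72, 5.59 and 5.62 CPM in treated CD34- libraries, which did not overlap. Its log2 fold change was -0.40 ± 0.05 (adjusted p = 0.00544), lost without mouse 1, 2, 3 or 4 (adjusted p = 0.0758, 0.059, 0.0721 and 0.103) and held without each single library. Nfatc1, a transcription factor that keeps bulge stem cells quiescent and lies downstream of BMP, was at 5.33, 6.58, 5.85 and 5.6 CPM in untreated and at 4.29, 4.44, 4.91 and 4.64 CPM in treated CD34- libraries (-0.35 ± 0.07, adjusted p = 0.048). That call held in 1 of 20 fits that each left out a library or a mouse, with adjusted p up to 0.322. Averaged over the fractions, where 4.87% of all genes were called, 1 of the 44 was higher, Bmp8b, and 5 were lower: Smad4 (-0.25 ± 0.05, adjusted p = 0.0154), Ski (-0.24 ± 0.04, 0.0059), Smad5 (-0.22 ± 0.05, 0.0319), Pmepa1 (-0.21 ± 0.05, 0.0285) and Nfatc1 (-0.20 ± 0.05, 0.0365). Pmepa1, the fourth of its list by size, was chosen after its values were seen. Leaving out 1 library or mouse in turn kept the call of Ski in 20 of 20 fits, of Smad4 in 17, of Pmepa1 in 10, of Smad5 in 8 and of Nfatc1 in 4.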

How the data were processed

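RNA from sorted organoid cells was sequenced from its 3′ ends with UMIs. The authors used FLEXBAR to demultiplex the reads, Kallisto (0.45.0 in the submitters' processing notes) to map the second read to mm10, BEDTools to intersect tags with genes, and R to count distinct UMIs. The deposited values are these raw counts, with no normalization; the annotation release and the use of strand are not given in the sources used here. The 156050 empty cells were read as 0. Symbols and positions came from GENCODE on GRCm38 (mm10), and 62 identifiers without a symbol held 0.116% of counts.

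The quasi-likelihood test of edgeR 4.0.16 (R 4.3.3), with TMM scaling, was run on the 19049 genes whose mean count reached 5. The 16 libraries shared 1 model with a mean for each group, and p-values were adjusted over all these genes (Benjamini-Hochberg). Standard errors and 95% intervals were taken back from each p-value. No 2 libraries of a group agreed within counting noise (chi-square per degree of freedom at least 25.4). The labels' mouse entry pairs the libraries across groups; over 24 pairs of same-mouse libraries, deviations from the group means correlated by 0.01 on average (-0.063 to 0.081), and a fit with the mouse as a block was an alternative. Further alternatives were DESeq2 1.42.0, DESeq2 size factors, library totals, filterByExpr, no count filter, fits of only the groups compared, an added log2 fold change limit of 0.5, and leaving out each library or mouse. The procedure was tested on simulated data. The 10 genes are described throughout. The rule for each pathway list was to name at most 3 called genes per comparison, those with the largest absolute log2 fold change and a mean count of at least 50. Atoh8, Msx1, Rgma, Bmpr1b and Pmepa1 are named beyond this rule, and Tcf4, Tcf12, Msx2 and Gata3 although not called. A gene named for 1 comparison may have its values given for others. For each Id gene the 2 genes nearest in pattern are named. The genes and lists were chosen with earlier results of these data known. 3′ counts were not compared between genes. Figures were drawn with matplotlib.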

Additional observations from a re-analysis of the deposited data

Results flagged for a closer look

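Bmp2 in untreated CD34+ libraries stood at 0.154 CPM in mouse 4 against 0.108 to 0.114 CPM in the other mice, a gap of 0.883 of the group's whole range, above Dixon's 95% critical value for 4 samples. It rests on 3 UMIs against 2 in each of the other libraries. Of 40 groups of 4 libraries checked in this way it was the only such case, and chance gives about 1 in 20.

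The N1-AcSpd effect on Bmp2 ran in opposite directions in the fractions: lower in all 4 mice in CD34- and higher in all 4 mice in CD34+ cells. The test of the difference gave a log2 value of 1.31 (95% interval 0.02 to 2.61, unadjusted p = 0.0475, adjusted p = 1 in edgeR), so it did not pass after correction. The counts were 2 to 14 UMIs per library. In CD34+ cells of mice 2, 3 and 4 the treated and untreated libraries held the same number of Bmp2 UMIs (2, 2 and 3), so that the higher CPM there follows from library scaling and mouse 1 alone (2 against 6 UMIs) differed in counts.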

How the results depend on the processing

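The calls of Id2, Id4 and Smad6 between the fractions held in both conditions in every setting tried, and no gene of the 10 changed direction while called. The number of the 10 genes called was 5 between the treated fractions and 3 with the log2 fold change limit of 0.5, which Id1 and Id3 did not reach. For N1-AcSpd in CD34- cells it was 1, and 2 with the mouse block. It was 0 without a count filter, with only the groups compared, or with DESeq2, which gave Bambi no adjusted value. In CD34+ cells it was 0, and 1 with the block. For the mean effect it was 1, and 2 with DESeq2 size factors, library totals or filterByExpr (Id3 added), 0 without a count filter and 3 with the block. The block changed no call of the 10 genes other than those of Id1, Id2 and Id3 given above. Of the pathway calls made without the block, that of Rgma was lost, while the number of the 44 called went from 17 to 19 (untreated fractions), from 20 to 20 (treated fractions), from 2 to 4 (CD34-), from 0 to 1 (CD34+) and from 6 to 9 (mean effect). Leaving out 1 library or mouse gave 4 to 6 (untreated fractions), 3 to 5 (treated fractions), 0 to 1 (CD34-), 0 to 0 (CD34+), 0 to 2 (mean effect) and 0 to 0 (interaction) of the 10.

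Over all genes, the 117 calls for N1-AcSpd in CD34- cells became 351 with the block, 558 with DESeq2, 35 without a filter, 27 with the fold change limit and 0 with only the groups compared. The 62 in CD34+ cells became 152, 423, 35, 19 and 3, and the 928 for the mean effect 1551, 1585, 445 and 94 (no fit of only the groups compared applies). The fold change limit left 2913 of 6123 and 3197 of 6347 calls between the fractions. Among calls in CD34+ cells (36 higher, 26 lower), 70.7% were higher with DESeq2 size factors and 75.4% with DESeq2. Library totals moved the median of all genes between the fractions to 0.137 and 0.109 and the share of higher calls to 73.4% and 71.6% (3059 higher and 3064 lower, and 3147 and 3200, with TMM). Relative to that shift Id1 was at 0.16 and 0.24 and Id3 at 0.29 in both. The causes of these changes were not tested. With 4 mice per group, genes of a few UMIs such as Bmp2 limit what can be seen.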

Other observations

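The TGF-β arm, the sister pathway of BMP that uses Smad2 and Smad3, had 8 tested genes, of which 2 were higher and 2 lower in untreated CD34+ cells (16.1% of all genes were called in each direction), and 1 was higher and 3 lower in treated ones (16.5% and 16.8% of all genes). Tgfb1, a ligand, was at 2.62, 3.58, 3.55 and 3.52 CPM in untreated CD34- and at 1.93, 1.48, 2.44 and 1.95 CPM in untreated CD34+ libraries, a log2 fold change of -0.76 ± 0.14 (adjusted p = 0.00117), and -0.59 ± 0.14 (0.00512) with N1-AcSpd, where the call was lost without mouse 4 (-0.53, adjusted p = 0.0601). Its receptor Tgfbr1 was higher by 0.44 ± 0.09 (0.0026) and 0.40 ± 0.09 (0.00366) in edgeR's test. The co-receptor Tgfbr3 was at -0.35 ± 0.12 (0.0352) and -0.44 ± 0.12 (0.00979), calls that held in 11 and 18 of 20 fits without 1 library or mouse. Its reads may be shared with Gm43423, which overlaps it on the same strand with a mean count of 88.8 against 133 for Tgfbr3.

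Both tested follicle quiescence factors were higher in CD34+ cells in both conditions. The list's name does not describe the cycling of the cultured cells. In untreated cultures the paper reported more uptake of EdU, a label of DNA synthesis, in HFSCs than in progenitors. Of all tested genes, 16.1% were called higher in untreated and 16.5% in treated CD34+ cells. Nfatc1 was at 5.33 to 6.58 CPM in untreated CD34- and at 13.3 to 13.9 CPM in untreated CD34+ libraries, with log2 fold changes of 1.22 ± 0.07 (adjusted p = 1.75e-07) and 1.52 ± 0.07 (1.65e-08). Foxc1, a forkhead factor, was higher by 0.96 ± 0.08 (1.33e-06) and 0.76 ± 0.08 (6.37e-06). These calls held in 20 of 20 fits that each left out a library or a mouse.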
